A study of Mus musculus with 32 samples.

Results

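The nuclear genes named Nduf encode most of the subunits of respiratory complex I and a group of the factors that build it. They were taken from a diurnal RNA-sequencing series of murine interscapular brown adipose tissue (iBAT). Of the 50 genes with such a name in the count table, Ndufab1-ps was left out as a named pseudogene and Ndufa11b because its counts summed to 51, under the minimum of 320 over all libraries. The remaining 48 of 50686 genes were kept, and all 48 passed the filter on low counts. Among them are 7 core subunits, 29 accessory subunits, 8 assembly factors, Ndufa4 and Ndufa4l2, which carry the name but are no complex I subunits, and Ndufb4c and Ndufs6b, which the annotation calls processed pseudogenes. Ndufb1 was not analysed here. The mice were wild-type, male, 10 weeks old, of strain C57BL/6J, fed chow and not fasted, and were killed at 8 time points, 3 h apart, on a light:dark cycle of 12 h each. Time is given as Zeitgeber time (ZT), with lights on at ZT0 and off at ZT12. Each time point had 4 mice, 1 library each, which makes 32 libraries in all.

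Complex I oxidises NADH, passes the electrons through iron-sulphur clusters to ubiquinone and pumps protons across the inner mitochondrial membrane. Its core subunits carry out this chemistry and proton transfer, and accessory subunits surround them in a matrix arm and a membrane arm. The membrane core is encoded in mitochondrial DNA (the mt-Nd genes), so that the complex needs products of both genomes. In brown adipocytes the resulting proton gradient is dissipated by UCP1 to make heat, and the tissue is rich in mitochondria.

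The libraries held 16300770 to 18254659 counts, and the members took between 0.938% and 1.22% of them. All levels below are in CPM, the counts of a gene divided by the library total after TMM scaling. Brown adipocyte markers summed to between 9639 and 15573 CPM. Fabp4 made up 4925 to 7182 CPM of this and Ucp1 955 to 4318 CPM, and all 7 were detected in every library, although Elovl3 was as low as 0.420 CPM in replicate 1 of ZT15. Markers of skeletal muscle, a neighbouring tissue, ranged from 2.17 to 5709 CPM between libraries and exceeded 1000 CPM in 15 of 32, with carriers at every time point. Replicate 1 of ZT15 stood apart for the members: it was the lowest of the 32 libraries for 22 of 48 genes, with 8613 CPM over all members against 10643 to 11128 CPM in the other ZT15 libraries. Its brown adipocyte markers had the lowest sum of all libraries, 9639 CPM, and its white fat markers the highest, 324 CPM. Its muscle markers summed to 5565 CPM. Replicate 3 of ZT9 was the lowest for 11 more, and its macrophage markers summed to 208 CPM, the highest of all libraries. Each time point was sequenced on a single lane. ZT0, ZT3 and ZT6 shared lane 2, ZT9, ZT12 and ZT15 lane 3, and ZT18 and ZT21 lane 4, so that time and lane cannot be told apart between these sets. In whole tissue, fewer cells of a type and less RNA per cell cannot be told apart either.

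Subunit genes were expressed at much higher levels per length than assembly factor genes. Per kb of exon, the 36 subunit genes had a median level of 147 CPM per kb, and the 8 assembly factors a median of 14.3 CPM per kb with a range of 3.80 to 28.9. The 3 members with the highest level per kb were Ndufb9, a small membrane-arm subunit, at 520 CPM per kb, Ndufa1, an X-linked subunit next to the quinone site, at 476, and Ndufa4, a subunit of cytochrome c oxidase, at 425. The lowest were Ndufb4c at 4.63 CPM per kb, the late assembly factor Ndufaf2 at 3.80, and Ndufb2, a distal membrane-arm subunit, at 2.79. Divided by the median length of its transcripts in place of its whole exonic length, Ndufa4 came first with 1277 CPM per kb and Ndufaf2 was at 18.3, while Ndufb2 ranked 47 of 48. The order of single genes therefore depends on the length used. Of the 36 subunit genes, Ndufb2, Ndufb4 and Ndufab1 lay below the highest assembly factor per kb of exon, and Ndufb2 and Ndufb4 did so per median transcript. Of the exonic bases of Ndufaf2, 65.7% overlap a noncoding gene on the opposite strand that had 0 counts in the table, so its level is uncertain.

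**Figure D1:**
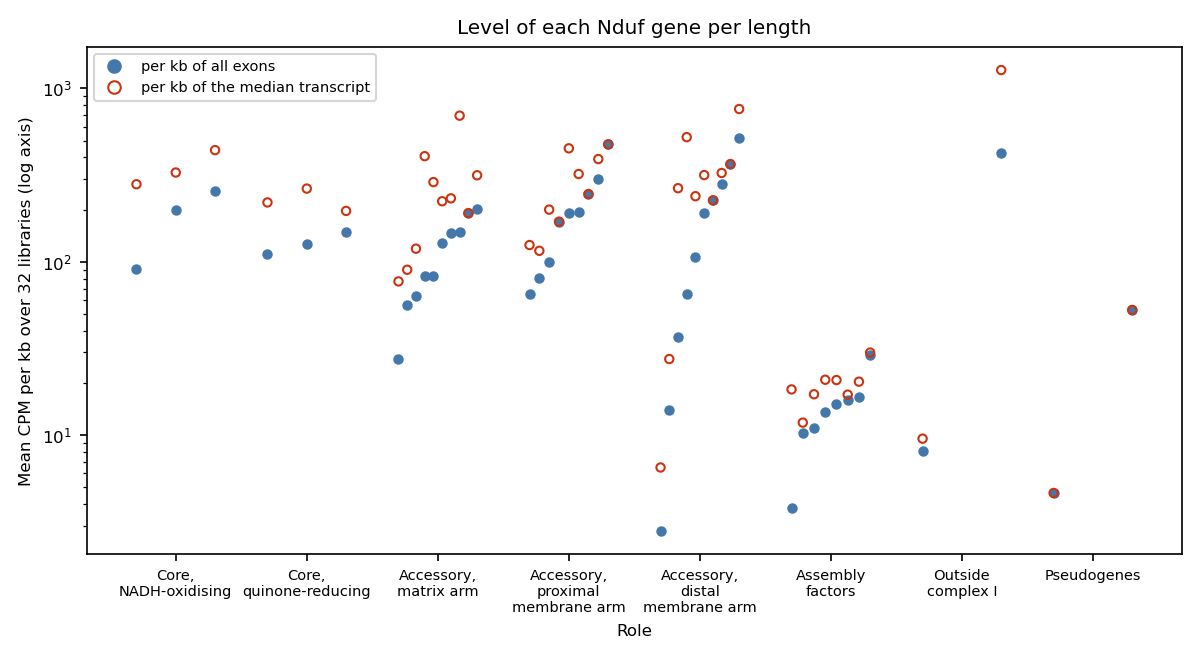
Mean level of each of 47 of the genes over 32 libraries, in CPM per kb on a log axis, by role. Filled points use the length of all exons and open points the median transcript length. The 8 assembly factors lie between 3.80 and 28.9 CPM per kb of exon, below most subunits.

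Sequence shared with other genes bears on some of these levels. All 100-base stretches of Ndufb4c also occur in transcripts of Ndufb4, and 33.4% of those of Ndufb4 occur in Ndufb4c. For Ndufb6, 24.0% of its stretches lie in Smim27 on the opposite strand, and Ndufa13 shares 24.0% with Tssk6, also on the opposite strand. Ndufs3, Ndufa12, Ndufb9 and Ndufs5 share 13.9% to 19.9% with pseudogenes or overlapping gene models. The strand setting of the read counting is not given in the sources used here, so the levels of these genes are uncertain, and differences of Ndufb4 and Ndufb4c cannot be assigned to either one.

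The members were highest on average at ZT0, and their means differed little over the day. Their summed level was 11582 ± 639 CPM (SD, n = 4) at ZT0 and 9779 ± 273 at ZT3, had means between 10037 and 10484 from ZT6 to ZT15, and was 11082 ± 430 at ZT18 and 10558 ± 685 at ZT21. The mean was highest at ZT0 for 35 of 48 members and at ZT18 for 8, whereas 17.7% of all tested genes were highest at ZT0. The lowest mean fell at ZT3 for 23 members and at ZT9 for 10. The median fold between a member's highest and lowest time-point mean was 1.24, below the median of 1.42 over all tested genes. The spread between mice was small as well, with a median SD on the log2 scale of 0.12 for members and 0.20 for all tested genes. For 40 nuclear genes of complexes II to V the median fold was 1.21 and the median SD 0.13. Genes with few counts vary more by counting alone, and no comparison with genes of like level was made.

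**Figure D2:**
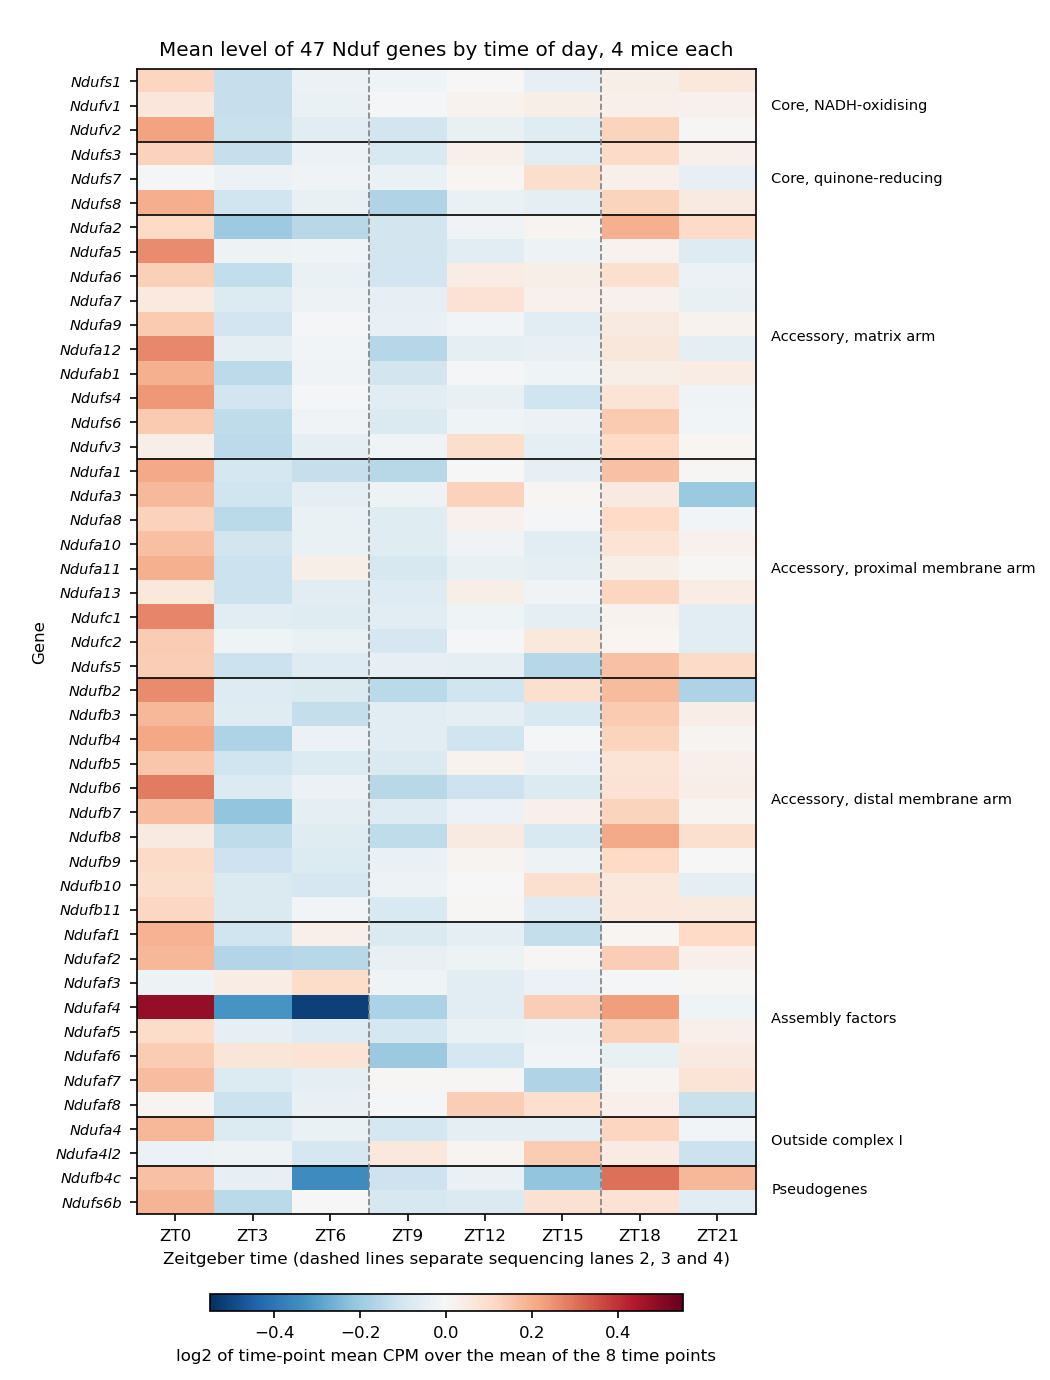
Mean level of 47 of the genes at each time point (columns, 4 mice each), as the log2 ratio to the mean of the 8 time points, with rows in order of role. Dashed lines separate the sequencing lanes. Red at ZT0 and ZT18 runs through nearly all subunit rows, and Ndufaf4 has the strongest colours.

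By edgeR's quasi-likelihood test with Benjamini-Hochberg adjustment over all 15505 tested genes, 18 of 48 members differed between time points, against 39.8% of all genes. A cosine of 24 h passed the test for 11 members, against 36.1% of all genes. With lane as a factor beside the cosine, 4 members passed against 17.2% of all genes, and Ndufaf4 was the only one in both sets. JTK, a rank test for oscillation, had P under 0.05 for 17 members against 36.4% of all genes, and 6 members, Ndufa2, Ndufaf4, Ndufaf5, Ndufb3, Ndufb8 and Ndufs8, remained after adjustment, against 27.1%. The fitted peaks of the 11 members with a cosine lay between ZT18.7 for Ndufa2 and ZT23.9 for Ndufaf6. With the 15 libraries over 1000 CPM of muscle markers left out, 1 member differed between time points, 5 had a cosine and 4 passed JTK, while 1548, 2863 and 3306 of the 16063 genes then tested did. Several calls lay close to the threshold. When libraries were left out singly, the time-point call was kept in 6 of 32 fits for Ndufs6, 8 for Ndufc1, 11 for Ndufs3, 12 for Ndufaf6 and 16 for Ndufb8, and the cosine in 8 for Ndufaf5 and 14 for Ndufv2. Without replicate 1 of ZT15, the library that stood apart, the counts rose to 28 for time points, 19 for the cosine and 28 for JTK. Without replicate 1 or replicate 2 of ZT0 the first of these fell to 9. The cosine count fell to 6 or 7 without replicate 2 of ZT6, replicate 3 of ZT9, replicate 1 or 3 of ZT18 or replicate 2 of ZT21, and rose to 19 without replicate 1 of ZT21. The JTK count fell to 11 without replicate 3 of ZT9 or of ZT18 and to 9 without replicate 1 of ZT18.

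Of the 7 core subunits 3 differed between time points, as did 4 of 10 in the matrix arm and 3 of 9 in the proximal membrane arm, all near the 39.8% of all genes. Ndufs7, the subunit that holds the last iron-sulphur cluster before ubiquinone, had the smallest range of all 48 members, 1.10-fold, between 185 ± 14.2 CPM at ZT21 and 205 ± 11.7 at ZT15, and the libraries of these 2 time points overlapped. Ndufs1, the largest subunit, and Ndufv1, which binds NADH and FMN, spanned 1.19-fold and 1.14-fold, with edgeR adjusted p = 0.432 and 0.294 for the time points.

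Ndufv2, Ndufs8 and Ndufs3 were the core genes that passed. Ndufv2, the partner of Ndufv1 in the NADH-oxidising part, was at 542, 502, 504 and 451 CPM at ZT0 and at 393, 409, 397 and 380 CPM at ZT3. The lowest ZT0 library was above the highest ZT3 library, and levels at ZT18, 421 to 508 CPM, were again high. Its time points differed with an edgeR adjusted p of 0.0174, and its cosine peaked at ZT21.1 (adjusted p = 0.0431). Ndufs8, an iron-sulphur subunit near the quinone site, went from 221 ± 20.8 CPM at ZT0 to 178 ± 6.99 at ZT3, with a fitted peak at ZT21.0 and a log2 amplitude of 0.12 ± 0.036 (SE, adjusted p = 0.0184). Ndufs3, which links both core parts, was at 302 ± 6.65 CPM at ZT0 and 253 ± 13.2 at ZT3, and its time points passed narrowly (edgeR adjusted p = 0.0465), without a cosine (adjusted p = 0.111).

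Among the 10 accessory subunits of the matrix arm, 4 differed between time points (Ndufa2, Ndufa5, Ndufa12 and Ndufs6), and Ndufa2 alone had a cosine. Ndufa2, a small subunit with a thioredoxin-like fold, had the smallest cosine p of all members (edgeR adjusted p = 0.00138), with a log2 amplitude of 0.16 ± 0.034 (SE). Its level was 97.1, 104, 89.9 and 89.5 CPM at ZT3 and 118, 121, 138 and 122 CPM at ZT18. All ZT18 libraries were above all ZT3 libraries, and the fitted peak lay at ZT18.7 ± 0.785 h. Its adjusted p rose to 0.0952 when lane was added to the fit. Ndufa5 had a cosine when lane was in the fit (edgeR adjusted p = 0.0498) but not without it (adjusted p = 0.0598), being at 163, 171, 150 and 152 CPM at ZT0 and at 112 to 147 CPM in every other library. Ndufa7 was flat, with a 1.11-fold range of time-point means.

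Of the 9 accessory subunits of the proximal membrane arm, 3 differed between time points (Ndufa3, Ndufa11 and Ndufc1). Ndufc2 had a cosine when lane was a factor (edgeR adjusted p = 0.0259) but not without it (adjusted p = 0.359), at 248 ± 18.0 CPM at ZT0 and 211 to 235 CPM in the means of the other time points. Ndufa11, one of the membrane-spanning subunits, was at 125 ± 4.18 CPM at ZT0 and 100 ± 5.00 at ZT3, with time points at adjusted p = 0.0280.

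In the distal membrane arm 5 of 10 subunits differed between time points (Ndufb2, Ndufb3, Ndufb4, Ndufb6 and Ndufb8), against 39.8% of all genes, and 3 of these had a cosine (Ndufb3, Ndufb6 and Ndufb8). Ndufb6 was at 233, 244, 233 and 191 CPM at ZT0, 185, 186, 170 and 163 CPM at ZT3, and 192, 189, 136 and 148 CPM at ZT9. Every ZT0 library was above every ZT3 library, the nearest being replicate 4 of ZT0. Its cosine peaked at ZT22.4 with a log2 amplitude of 0.15 ± 0.039 (SE, edgeR adjusted p = 0.00955). Ndufb8 differed in being highest at ZT18, at 390 ± 26.0 CPM, and lowest at ZT3, at 306 ± 9.97 CPM. Ndufb2 was low throughout and was high at both ZT0 and ZT18. It was at 21.4, 20.1, 16.6 and 17.0 CPM at ZT0, 17.6, 17.6, 18.5 and 17.0 CPM at ZT18, and 13.0, 15.2, 13.9 and 13.7 CPM at ZT21. ZT18 and ZT21 were sequenced on the same lane and did not overlap, and Ndufb2 was the 1 member called within that lane (edgeR adjusted p = 0.0276), against 4.48% of all genes.

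The assembly factor Ndufaf4, which acts with Ndufaf3 on an early intermediate of the matrix arm, changed more than any other member. Its level was 101, 86.7, 95.3 and 64.1 CPM at ZT0, 60.8, 47.3, 46.6 and 44.1 CPM at ZT3, and 53.4, 38.3, 45.3 and 37.2 CPM at ZT6. From there it rose to 84.6, 75.3, 65.1 and 66.3 CPM at ZT18. Every library of ZT0 was above every library of ZT3 and ZT6, and every library of ZT18 was above every library of ZT3 and ZT6. The time-point means spanned a 1.99-fold range. The cosine had a log2 amplitude of 0.31 ± 0.079 (SE) and a peak at ZT19.1 ± 0.970 h, with an edgeR adjusted p of 0.00910, and of 0.00313 with lane as a factor. Within lane 2 alone its 3 time points differed with an adjusted p of 0.00438. The calls of the time points, the cosine without lane and lane 2 were kept in every fit that left out 1 library, the highest adjusted p being 0.0197, for the cosine.

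**Figure D3:**
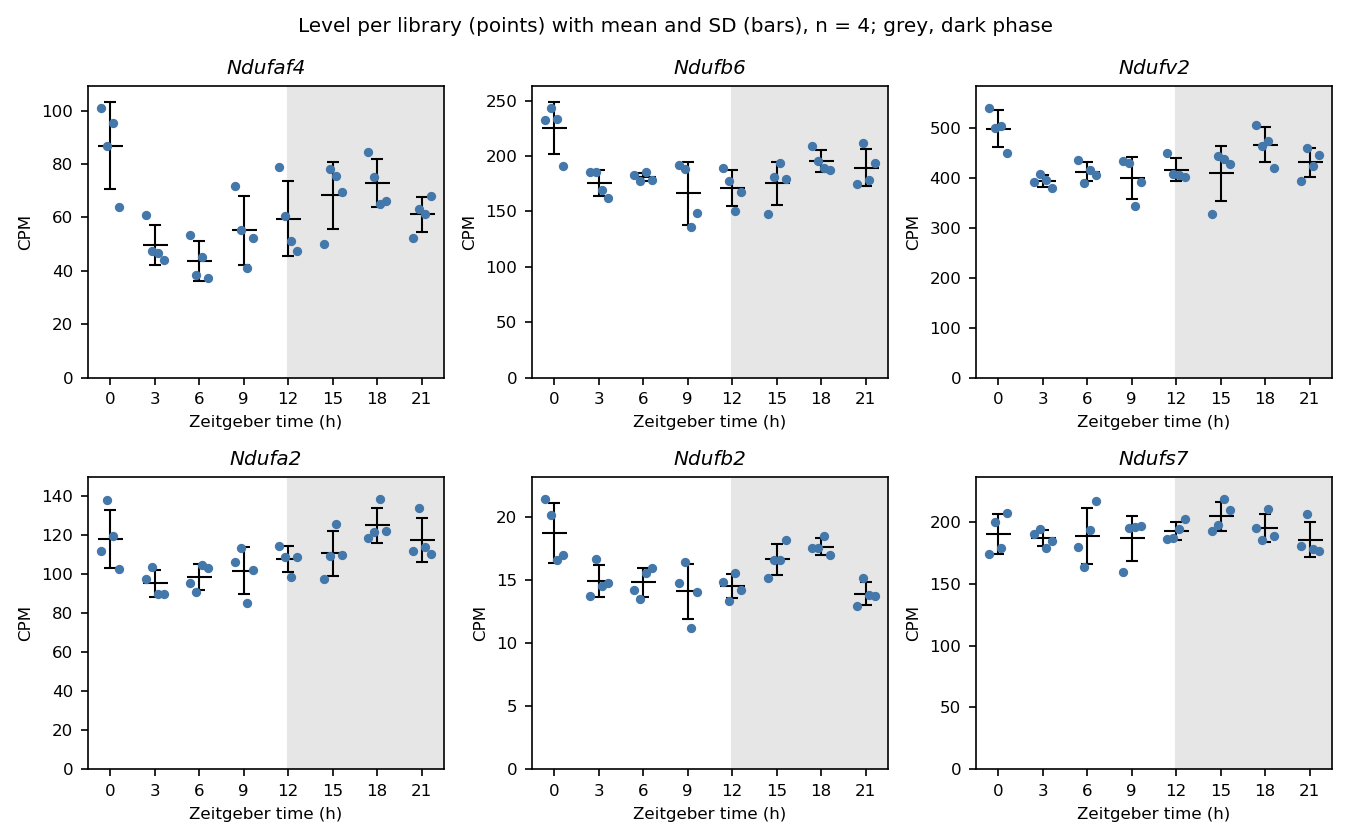
Level of 6 members in each library (points) with the mean and SD (bars, n = 4) against Zeitgeber time, in CPM on axes from 0. Ndufaf4 falls from 64.1 to 101 CPM at ZT0 to 37.2 to 53.4 CPM at ZT6, while Ndufs7 shows no such step.

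Ndufaf4 lies on chromosome 4 (GRCm38, 24898083 to 24905001, plus strand). The stretch before its start is shown because it was the member that changed most. It is set beside those of Ndufb6, a subunit with a cosine, and of Ndufs7, the flattest member. Each runs 5′ to 3′ over the 250 bases before the transcription start in RefSeq (GRCm38.p6), at chr4:24897833-24898082 (plus strand), chr4:40279422-40279671 (minus strand) and chr10:80249199-80249448 (plus strand). The annotation used for gene lengths starts Ndufs7 at 80249121, so its stretch lies inside the gene by that annotation. Capitals mark the letters of the motifs searched.
Ndufaf4: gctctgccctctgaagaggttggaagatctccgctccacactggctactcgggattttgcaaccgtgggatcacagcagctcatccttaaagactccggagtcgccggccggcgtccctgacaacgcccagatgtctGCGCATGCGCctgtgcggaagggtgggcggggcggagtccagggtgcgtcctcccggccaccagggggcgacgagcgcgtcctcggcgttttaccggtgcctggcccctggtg
Ndufb6: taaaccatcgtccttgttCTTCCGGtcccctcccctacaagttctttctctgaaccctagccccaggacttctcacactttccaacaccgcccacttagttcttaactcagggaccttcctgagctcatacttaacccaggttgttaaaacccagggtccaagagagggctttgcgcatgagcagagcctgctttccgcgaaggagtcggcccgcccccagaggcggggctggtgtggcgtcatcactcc
Ndufs7: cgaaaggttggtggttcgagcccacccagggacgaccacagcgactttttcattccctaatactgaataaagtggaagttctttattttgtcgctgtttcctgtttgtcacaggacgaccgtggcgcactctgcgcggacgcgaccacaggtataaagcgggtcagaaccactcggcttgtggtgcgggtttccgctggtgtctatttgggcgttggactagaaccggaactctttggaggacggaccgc

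Promoter windows of 250 bases before to 50 after the start were held for 40 of the 48 members, 42 windows in all, and were searched on both strands for 6 short motifs. The letters AAGATGGC, a YY1 site, were in 19.0% of member windows and in 2.75% of all 32851 windows. In the members they all lay after the start, from base 11 in Ndufaf8 to base 39 in Ndufb8, and none lay upstream. The core of the NRF-1 site, GCGCATGC, was in 11.9% and 2.71%. The capitals in the Ndufaf4 sequence are 2 overlapping copies of it on opposite strands, starting 113 and 111 bases before the start, and a further copy begins at base 2 after the start. CCGGAAG, an ETS site, was in 14.3% against 8.86%. AAGGTCA, a site of oestrogen-related receptors, was in 7.14% against 4.72%, TGACGTCA, the cAMP response element, in 7.14% against 1.79%, and CACGTG, the E-box of clock factors, in 7.14% against 7.15%. The Ndufs7 window held a YY1 site 25 bases after the start, and none of the 6 in the stretch shown. These are counts of letters, not of bound sites.

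The other 7 assembly factors had fold ranges of 1.11 to 1.27. Ndufaf2, Ndufaf5 and Ndufaf6 also had a cosine, with fold ranges of 1.27, 1.17 and 1.27, whereas Ndufaf1, Ndufaf3, Ndufaf7 and Ndufaf8 had none. Ndufaf2 was lowest at ZT3, at 10.1 ± 0.508 CPM, and at 12.8 ± 1.28 CPM at ZT0. Ndufaf6 was lowest at ZT9, at 11.1 CPM, and its cosine peaked at ZT23.9 ± 1.04 h (edgeR adjusted p = 0.0186). Ndufaf3, which acts together with Ndufaf4, was among the 3 members with the smallest range, 1.11-fold between 29.0 CPM at ZT12 and 32.4 CPM at ZT6, and its time points did not pass the test (edgeR adjusted p = 0.599). Ndufaf8, a partner of Ndufaf5, was highest at ZT12.

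Neither paralog outside complex I passed for time points or the cosine. Ndufa4, a subunit of complex IV, was at 714, 760, 625 and 570 CPM at ZT0 and 571, 565, 560 and 532 CPM at ZT3, and at 637 ± 36.8 CPM at ZT18. Replicate 4 of ZT0 lay among the libraries of ZT3, and its time-point means spanned a 1.21-fold range (edgeR adjusted p = 0.0510 and 0.0645). Ndufa4l2, its hypoxia-regulated paralog, was low, at 8.90 CPM on average, with a 1.19-fold range (edgeR adjusted p = 0.669 for the time points). The pseudogene Ndufb4c was lower still, at 1.81 CPM. Its log2 amplitude of 0.21 ± 0.063 (SE) was next to that of Ndufaf4 among the members with a cosine (edgeR adjusted p = 0.0314), from a low count shared in sequence with Ndufb4.

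Pairs of time points 12 h apart gave few calls, and each pair spans different lanes. Between ZT12 and ZT0, the onsets of dark and light, 10 of 48 members differed, against 15.9% of all genes. All 10 were lower at ZT12, and they comprised 8 accessory subunits, Ndufv2 and Ndufaf4. The largest change was that of Ndufaf4, with a log2 fold change of -0.54 ± 0.17 (SE, edgeR adjusted p = 0.0333), followed by Ndufb6 with -0.40 ± 0.10 (adjusted p = 0.00758). The smallest were those of Ndufa11 and Ndufb3, both of -0.24 (adjusted p = 0.0309 and 0.0382). All 10 calls were lost once the libraries over 1000 CPM of muscle markers were left out, when 366 of 16063 genes passed, with a median log2 fold change of -0.19 against -0.17 with all libraries. The count fell to between 4 and 6 without any one of ZT0 replicates 1, 2 and 3 or ZT12 replicates 2, 3 and 4, and to 2 in a fit of these 8 libraries alone. Stroma markers summed to 153 to 218 CPM at ZT0 and 244 to 358 CPM at ZT12. Median log2 fold changes were 0.54 for stroma, 0.55 for macrophage, -0.61 for blood and 0.00 for brown adipocyte markers, and no marker of any list passed. The part of these in the differences between ZT0 and ZT12 was not tested.

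ZT18 was higher than ZT6 for 5 members against 16.9% of genes in either direction: Ndufaf4, Ndufb4c, Ndufa2, Ndufaf2 and Ndufb3. The log2 fold change was 0.74 ± 0.18 (SE) for Ndufaf4 (edgeR adjusted p = 0.00457), 0.64 ± 0.19 for Ndufb4c, 0.29 ± 0.094 for Ndufaf2 and 0.27 ± 0.078 for Ndufb3. Markers of other tissue differed between the same groups. The 2 white fat markers summed to 43.1 to 69.1 CPM at ZT6 and 135 to 227 CPM at ZT18, and 1 of them passed as higher. Muscle markers were higher in sign at ZT18 for 8 of 8, at 2.17 to 1396 CPM against 3.09 to 4095 CPM, and stroma markers lower for 3 of 3, at 205 to 442 CPM against 204 to 295 CPM. Of 7 brown adipocyte markers 2 were lower in sign at ZT18 and 1 passed as lower. All blood, endothelial, macrophage and lymphoid markers were lower in sign, and none of them passed. The part of these in the differences between ZT6 and ZT18 was not tested. Leaving out replicate 1 or 2 of ZT6, or replicate 1, 2 or 3 of ZT18, left 2 or 3 calls. Neither ZT15 against ZT3 nor ZT21 against ZT9 gave a member call by edgeR or DESeq2. The background was 14.2% and 9.62%. An unadjusted p under 0.05 was found for 8 and 5 members, against 27.7% and 24.4% of all genes, so the members' shares were below those of all genes. Without replicate 1 of ZT15, 5 members passed in the first of these, and 1 without replicate 1 of ZT3. In the second, 1 passed as higher at ZT21 without replicate 1 of ZT9 or replicate 4 of ZT21, and 1 as lower without replicate 2 of ZT21.

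Comparisons within a lane are free of the lane. In lane 2, over ZT0, ZT3 and ZT6, 10 of 48 members differed, against 13.3% of all genes. The smallest adjusted p values were those of Ndufaf4 (0.00438), Ndufv2 (0.0168) and Ndufa12 (0.0203). This count rested on single libraries. It was 27 without replicate 4 of ZT0, the lowest ZT0 library for 30 members, and 1 or 2 without any other ZT0 library. It was 4 without replicate 3 or 4 of ZT3, and 5 or 6 without replicate 1, 2 or 3 of ZT6. DESeq2 called 28 members in this lane, and 2983 of 14862 genes. In lane 3, over ZT9, ZT12 and ZT15, no member passed by edgeR or DESeq2 against 1.93% of genes, and none had an unadjusted p under 0.05, against 16% of genes. In lane 4, 4 members including Ndufb2 had an unadjusted p under 0.05, against 20.7% of genes. The call of Ndufb2 was lost without any one library of ZT18 replicates 1 to 3 or ZT21 replicates 1, 3 and 4, and without replicate 2 of ZT21 there were 2 calls.

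The clearest step was the fall over the first hours of light. This contrast was chosen after the values had been seen. From ZT0 to ZT3, 46 of 48 members went down in sign, with a median log2 fold change of -0.26 against 0.01 over all genes tested. By edgeR, 26 members passed, all of them lower at ZT3. Of all genes 13.8% passed, 6.6% in the same direction. The 26 comprised 3 core subunits (Ndufv2, Ndufs3 and Ndufs8), 8 of 10 accessory subunits of the matrix arm, 5 of 9 of the proximal and 6 of 10 of the distal membrane arm, Ndufaf2, Ndufaf4, Ndufa4 and Ndufs6b. All ZT0 libraries lay above all ZT3 libraries for 24 members, where 16% of all genes did not overlap in either direction. Ndufaf4 fell by 0.81 ± 0.18 (SE) on the log2 scale (edgeR adjusted p = 0.00370), Ndufb7 by 0.39 ± 0.099 (adjusted p = 0.0114) and Ndufb4 by 0.38 ± 0.085 (adjusted p = 0.00402). Ndufaf3 and Ndufa4l2 were the 2 members that did not go down.

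**Figure D4:**
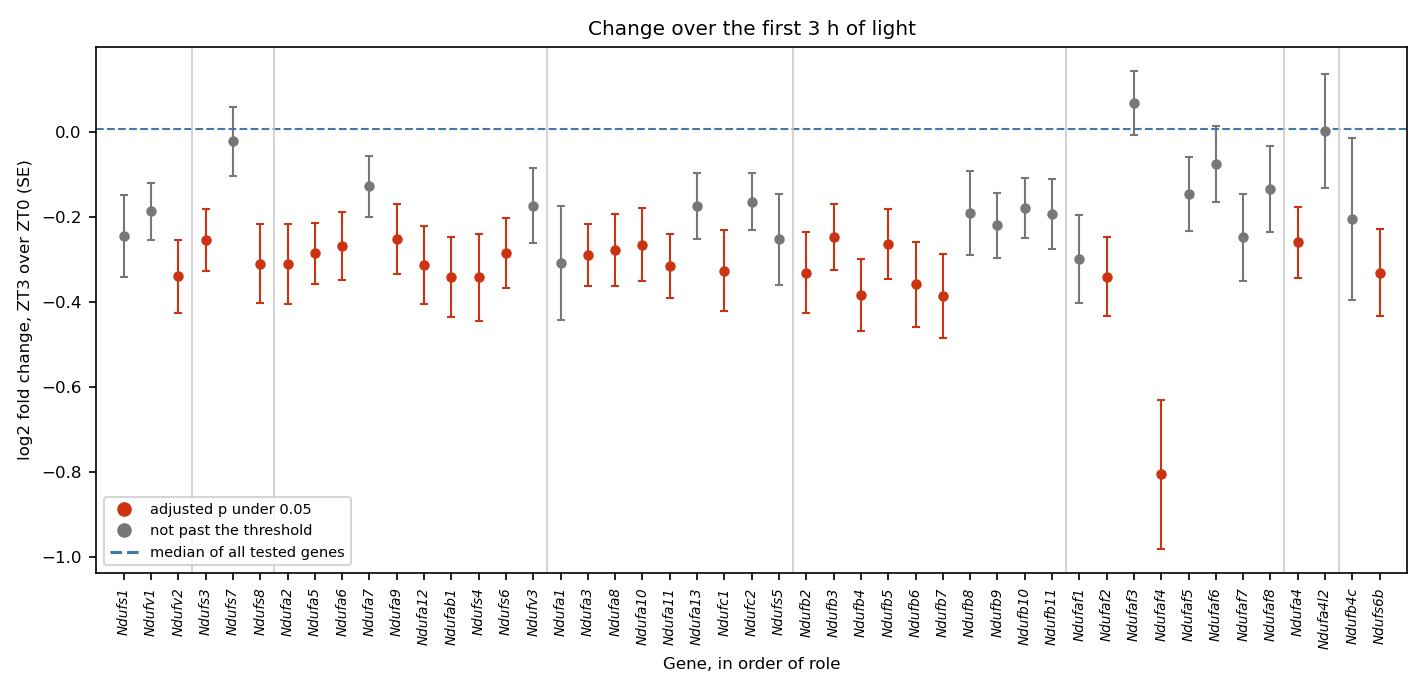
Log2 fold change from ZT0 to ZT3 for 47 members with their standard errors, in order of role. Red points passed the edgeR test, and the dashed line is the median of all tested genes, 0.01. All of those shown lie below that line but Ndufaf3, and Ndufaf4 lies lowest at -0.81.

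Between 45 and 47 members went down in sign under the 3 scalings tried, but the calls were sensitive to the libraries. With library size in place of TMM 16 members passed, the median of the members being -0.20 and that of all genes 0.07, and 4 did in a fit of the 8 libraries alone. The count was 10 or 11 without any one of ZT0 replicates 1, 2 and 3 or ZT3 replicate 3, and 8 without replicate 4 of ZT3. With the libraries over 1000 CPM of muscle markers left out, 14 passed and the median was -0.33. With the muscle level as a covariate, 30 passed and the median was -0.28. The shares of all genes that passed in these fits are not given here, so the counts have no background beside them. Markers of stroma moved the other way: 3 of 3 were higher at ZT3, and their summed level was 153 to 218 CPM in the ZT0 libraries and 251 to 389 CPM in those of ZT3. All 4 macrophage markers were higher in sign at ZT3 and 1 passed. Their sum was 35.9 to 58.7 CPM at ZT0 and 54.2 to 94.7 CPM at ZT3. Of the brown adipocyte markers 6 of 7 were lower in sign and 1 passed, their sum being 13230 ± 890 CPM at ZT0 and 11512 ± 436 at ZT3. Blood markers were lower in sign at ZT3 for 5 of 5, with a median log2 fold change of -0.71 and sums of 471 to 855 CPM at ZT0 and 265 to 547 CPM at ZT3. Lymphoid markers were higher in sign for 4 of 4, at sums of 1.80 ± 0.877 CPM at ZT0 and 3.39 ± 0.899 at ZT3. The part of these shifts in the fall of the members was not tested. Of the members with at least 5 CPM, 29 have transcripts of up to 1000 bases. Outside the members, among genes of at least 5 CPM, the median log2 fold change was -0.15 for transcripts up to 1000 bases and 0.10 for those over 5000, and 15.0% of the short ones passed as lower. These 29 members had a median of -0.28, and 18 of them passed. The part of transcript length was not tested.

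Of 40 nuclear genes for subunits of the other respiratory complexes, II to V, 39 were lower in sign at ZT3 and 16 passed as lower at ZT3 than at ZT0, against 6.6% of all genes, or 5 with library size alone, and 24 had their highest mean at ZT0 and 12 at ZT18. Between ZT12 and ZT0, 2 of the 40 passed, both lower at ZT12, against 15.9% of all genes, with a median log2 fold change of -0.08 against -0.17 for the Nduf genes. Differences between both lists were not tested. Their summed level was 30972 ± 1465 CPM at ZT0, 26666 ± 721 at ZT3 and 29704 ± 961 at ZT18. The ratio of this sum to that of the Nduf genes, which does not depend on scaling, stayed between 2.68 ± 0.0787 (SD, n = 4) at ZT0 and 2.77 ± 0.0285 at ZT12.

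The mitochondrially encoded subunits did not. The 7 mt-Nd genes summed to 94361 ± 1916 CPM at ZT6 and to 68736 ± 5309 CPM at ZT18, their lowest time point, where the sum of the Nduf genes was next to its highest. From ZT6 to ZT18, mt-Nd1, mt-Nd2, mt-Nd4 and mt-Nd5 fell, which together made up nearly all of the sum, while mt-Nd3 and mt-Nd4l, both under 10 CPM on average, rose. Of all genes 16.9% passed between these time points, and white fat and muscle markers were higher in sign at ZT18 as given above. These calls were the same in number with library size alone and with scaling that left out mitochondrial genes. mt-Nd1 fell by 0.63 ± 0.080 (SE) on the log2 scale. The ratio of mt-Nd to Nduf levels was 9.25 ± 0.186 (SD, n = 4) at ZT6, 6.22 ± 0.647 at ZT18 and 8.38 ± 0.892 at ZT21. The ZT18 libraries, at 5.42 to 6.84, lay below those of ZT21, at 7.63 to 9.67, which came from the same lane. They also lay below those of ZT6, at 9.10 to 9.51. At ZT0 the ratio was 7.71 ± 0.850 and at ZT3 9.13 ± 0.547, with overlapping libraries.

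**Figure D5:**
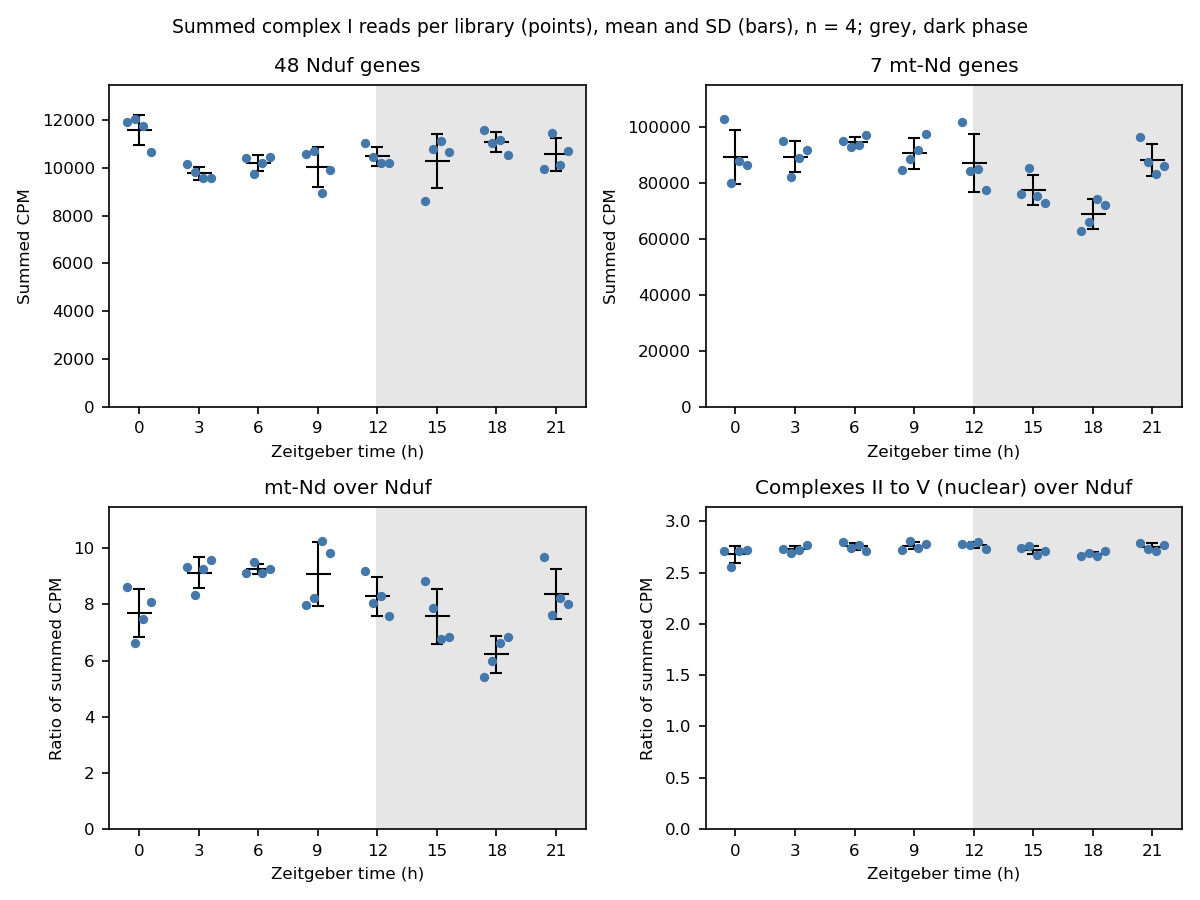
Summed level of the 48 Nduf genes and the 7 mt-Nd genes (upper panels, CPM) and 2 ratios of sums (lower panels) in each library, with mean and SD (bars, n = 4), against Zeitgeber time. The ratio of mt-Nd to Nduf is lowest at ZT18, at 5.42 to 6.84, while the ratio for complexes II to V stays near 2.7 throughout.

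Of 9 assembly factors of complex I with other names, 4 had a cosine (Timmdc1, Dmac1, Tmem186 and Ecsit), against 36.1% of all genes. Tmem126b and Tmem186 passed as lower at ZT3 than at ZT0, against 6.6% of all genes, while all 9 went down in sign. Of 9 regulators of mitochondrial biogenesis, 3 were higher at ZT18 than at ZT6, against 16.9% of genes that passed in either direction: Nrf1, which encodes the NRF-1 factor, with 11.0 ± 0.792 CPM at ZT6 and 15.2 ± 1.65 at ZT18, Gabpa, an ETS factor, and Yy1. Their log2 fold changes were 0.48 ± 0.087, 0.38 ± 0.11 and 0.28 ± 0.079 (SE; edgeR adjusted p = 0.000448, 0.0228 and 0.0166). Of the 9, 5 were lower in sign at ZT18, among them Ppargc1a and Esrra, and the list's median log2 fold change was -0.07. Esrra had a cosine that peaked at ZT10.5.

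Levels of the members also varied together between mice of the same time point. After the time-point means were subtracted, the median Pearson correlation over the 32 libraries was 0.56 for the 1128 pairs of members and -0.03 between members and all other tested genes. Both genes of a pair come from the same libraries and share their scaling and tissue make-up, so this is a description. Ndufv2 had the highest median correlation with the other members, 0.76, and Ndufb5 and Ndufb6 followed with 0.73 each. The lowest were Ndufa4l2, at -0.22, Ndufb4c, at 0.10, Ndufs7, at 0.19, and Ndufaf6, at 0.20.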

How the data were processed

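The authors aligned reads to mm10 with GSNAP, counted them per Ensembl gene with HTSeq (0.6.1), checked quality with MultiQC and deposited raw counts for 32 libraries of total RNA. The strand setting of the counting is not given in the sources used here. Libraries were grouped by the time point in their labels, 4 mice each. Totals of 16300770 to 18254659 counts per library limit the precision of genes with few counts. Members were genes whose symbol starts with Nduf, without named pseudogenes and with at least 320 counts in all. The members and lists were chosen with earlier results of these data known.

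Counts were filtered with filterByExpr, scaled by TMM and tested with edgeR (4.0.16, R 4.3.3, limma 3.58.1) by the quasi-likelihood test, with Benjamini-Hochberg adjustment over all 15505 genes and a threshold of 0.05. Comparisons were between all time points, between times 12 h apart in the fit of all libraries, and within each lane. The libraries of each lane were filtered, scaled and fitted alone. Adjustment was then over 14866 genes in lane 2, 14826 in lane 3 and 14486 in lane 4. The contrast of ZT3 with ZT0 and the ratios of sums were added after seeing the data. Cosines of 24 h had a fit of their own with the same test, and amplitudes came from log2 CPM with a prior count of 2. JTK was run with own code and 15 templates. DESeq2 (1.42.0), library size alone, no filter, a replicate block, lane or muscle terms and leaving out libraries were alternatives. Libraries of a time point differed beyond sampling noise in every pair. The scripts were tested on simulated data.

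Named genes were the core subunits, the extremes of level per kb, of amplitude and of range, the members with the largest changes in each comparison and the paralogs outside complex I. Other genes given with values, such as Ndufb7, Ndufb8 and Ndufaf6, were chosen after their values were seen. The values of 1 member, which is in all counts and sums, are not reported here. Replicate numbers did not pair the samples. Marker lists of blood, lymphoid, endothelial and white fat cells were summed too, over ranges of 265 to 1137, 0.736 to 4.40, 379 to 558 and 43.1 to 324 CPM.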

Additional observations from a re-analysis of the deposited data

Results flagged for a closer look

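In 13 of 144 groups of 4 libraries, 1 library stood far from the other 3 by the gap between them relative to the range of the group. These groups cover a chosen part of the members, their summed level and the ratio of mt-Nd to Nduf. Other members named above had such groups too, among them Ndufv1 and Ndufb3 at ZT15 and Ndufb4 at ZT12. Such gaps arise by chance in about 1 in 20 groups, and 24 of the 384 groups formed by 48 members and 8 time points showed one, or 6.25%. Ndufa2 was at 138 CPM in replicate 3 of ZT18, against 118 to 122 CPM in the others, and at 134 CPM in replicate 2 of ZT21, against 110 to 114 CPM. Ndufs7 was at 159 CPM in replicate 1 of ZT9, against 195 to 197 CPM, and at 207 CPM in replicate 2 of ZT21, against 176 to 181 CPM. In replicate 1 of ZT12, Ndufv2 was at 451 CPM, against 403 to 409 CPM, and Ndufaf2 at 12.9 CPM, against 10.3 to 10.7 CPM. Replicate 1 of ZT15, the library that was lowest for many members, was at 327 CPM for Ndufv2, against 429 to 445 CPM, at 148 CPM for Ndufs8, against 195 to 201 CPM, and at 10.1 CPM for Ndufaf2, against 11.7 to 11.9 CPM. Ndufs8 was also at 225 CPM in replicate 1 of ZT18, against 203 to 205 CPM. Ndufs3 was at 292 CPM in replicate 4 of ZT0, against 305 to 306 CPM, Ndufa11 at 103 CPM in replicate 2 of ZT6, against 114 to 116 CPM, and Ndufaf6 at 13.9 CPM in replicate 2 of ZT18, against 11.7 to 12.0 CPM.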

How the results depend on the processing

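Counts of members called moved by over 1.5 times under several settings. The share of all genes called is given above for some of these settings only. With library size alone they were 3 within lane 2, 1 for ZT15 against ZT3 and 16 for ZT3 against ZT0. Without the filter on low counts they were 5 for the cosine, 9 for time points, 4 for lane 2, 6 for ZT12 against ZT0, 2 for ZT18 against ZT6 and 14 for ZT3 against ZT0. DESeq2 gave 28 in lane 2 and 2 in lane 4, and the fit of all libraries 23 and 0. A fit of the 8 libraries alone gave 2 for ZT12 against ZT0 and 4 for ZT3 against ZT0. Lane as a factor left 4 cosines, and adjustment left 6 members by JTK. Replicate numbers did not pair the samples: same-numbered libraries had a mean correlation of deviations of -0.03, from -0.73 to 0.77, and 4 of 32 were closest to their own number. With the replicate block, the counts were 6 in lane 2, 0 in lane 4 and 1 for ZT15 against ZT3, and 11 for the cosine, 14 for time points and 25 for ZT3 against ZT0. Of the settings chosen after seeing the data, leaving out libraries over 1000 CPM of muscle markers gave 5 for the cosine, 4 for JTK, 1 for time points, 6 for lane 2, 0 for ZT12 against ZT0 and 14 for ZT3 against ZT0, and was not run for other comparisons. Without ZT0, 5 members differed between time points. Leaving out 1 library gave 6 to 19 for the cosine, 9 to 28 for JTK, 9 to 28 for time points, 1 to 27 in lane 2, 0 in each fit of lane 3, 0 to 2 in lane 4, 4 to 15 for ZT12 against ZT0, 0 to 5 for ZT15 against ZT3, 2 to 6 for ZT18 against ZT6, 0 to 1 for ZT21 against ZT9 and 8 to 32 for ZT3 against ZT0. The cause was not tested.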
